A study of Bursaphelenchus xylophilus with 12 samples.

Results

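Adult pine wood nematodes exposed to emamectin benzoate (EB) were compared between 12 h and 24 h of exposure, across all genes measured. The comparison rests on 6 of the 12 RNA-seq libraries of the study, 3 taken at 12 h (EB12) and 3 at 24 h (EB24), chosen by their titles and not by any measured value. Both groups are Bursaphelenchus xylophilus of strain NB-6, fed on the fungus Botrytis cinerea, with 200 adults per library immersed at 25 °C in EB at 0.1 mg/L. The 6 other libraries (EC12 and EC24, 3 each) are taken by elimination to be worms in the adjuvant alone, octylphenol polyoxyethylene-10 with n-butyl alcohol, which the treatment text calls ON and the titles call EC. They enter only where the change under EB is set against the change without it. Worms before exposure were not analysed here, so the comparison shows the second 12 h of immersion and not the response to the first. Of 18036 gene IDs in the deposited table, 13301 had an FPKM (fragments scaled to gene length and to all mapped fragments) of at least 1 in at least 3 of the 6 EB libraries and were tested.

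Emamectin benzoate is an avermectin. Avermectins open glutamate-gated chloride channels of nerve and muscle cells of nematodes and arthropods, which silences the cells and paralyses the animal, and they are injected into pine trunks to protect trees from pine wilt disease. Bursaphelenchus xylophilus, the agent of that disease, feeds on fungi and on plant cells and is carried between trees by longhorn beetles. Roles of single genes are not given below: the table lists IDs (BXY for the annotated genes, XLOC for other loci) without names or descriptions, and the markers that would check sex, tissue or stage were therefore not analysed here.

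The EB12 libraries were less alike than the EB24 libraries. Pearson correlations of log2(FPKM + 1) across the tested genes were 0.941 to 0.974 within EB12, 0.993 to 0.994 within EB24 and 0.904 to 0.928 between the times, and genes are not independent replicates. The lowest correlation was between EB12 replicates 1 and 2. Over tested genes, the SD among the 3 libraries had a median of 0.26 log2 units at 12 h and 0.09 at 24 h. These are whole-worm libraries, in which fewer cells of a type and less RNA per cell cannot be told apart. FPKM summed to 865643 ± 4773 (SD, n = 3) in EB12 and 924230 ± 6672 in EB24, and 12759 ± 249 and 13336 ± 19.2 IDs stood at an FPKM of at least 1. For both measures every EB24 library lay above every EB12 library (two-sided exact permutation p = 0.1, which is the least that 3 against 3 can give, and 0.2 after Benjamini-Hochberg adjustment over 4 library measures). Read totals are unknown. Steps between low values put the depth of EB24 replicates 2 and 3 at 1.38 and 1.03 times that of EB24 replicate 1, and that of EB12 replicates 1 to 3 at 1.87, 1.64 and 1.80 times, and halved values fitted almost as well (0.691 for EB24 replicate 2, and 0.935, 0.818 and 0.902 for EB12 replicates 1 to 3).

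Between 12 h and 24 h in EB, 3939 genes rose and 1585 fell, which is 29.6% and 11.9% of the 13301 tested, and 7777 did not pass the test (limma, two-sided, Benjamini-Hochberg adjusted p under 0.05). The risen genes had a median log2 difference of 0.97 and the fallen genes of -0.72. A rise of at least 1 log2 unit, 2-fold on the log2(FPKM + 1) scale, was called for 1868 genes (14.0%) and a fall of that size for 447 (3.36%). At 2 log2 units the counts were 180 and 108, and at 3 they were 17 and 22, so that falls outnumbered rises among the largest changes. At 2 log2 units the order flipped with the scaling, to 119 rises and 145 falls after the median ratio scaling described below and 105 and 177 after quantile normalization, and it also flipped without EB12 replicate 2, to 164 and 209. The 3 libraries of each time did not overlap for 57.7% of tested genes, with EB24 above EB12 in 38.1% and below in 19.6%. In summed FPKM, the risen genes gained 137764, while the fallen genes lost FPKM (-63085) and the genes not called changed by -16284.5.

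The balance of rises and falls depended on how the libraries were scaled. With the deposited FPKM the median of all tested genes stood at 0.15 log2 units and 71.3% of calls were rises. After rescaling by the median ratio the median was -0.03, and 2969 genes rose and 2714 fell (52.2% rises). After quantile normalization the median was -0.02, and 2879 rose and 2661 fell (51.97% rises). No gene called with the deposited values was called in the other direction with either scaling, and 1585 and 1584 of the 1585 falls were called again. The direction of calls of at least 1 log2 unit stayed the same, with 1338 rises and 690 falls after median ratio scaling and 1124 and 829 after quantile normalization. The number of calls also rested on the EB24 replicates: without replicate 1, 2 or 3 of EB24 it was 3448, 3218 or 3472 in place of 5524, with 809, 762 or 817 falls. The labels name no batch or date, and the 12 h titles carry a group number that the 24 h titles lack, so the time point cannot be told apart from a batch. The labels do not explain that number, and it also differs between the EB and EC titles at 12 h.

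**Figure D1:**
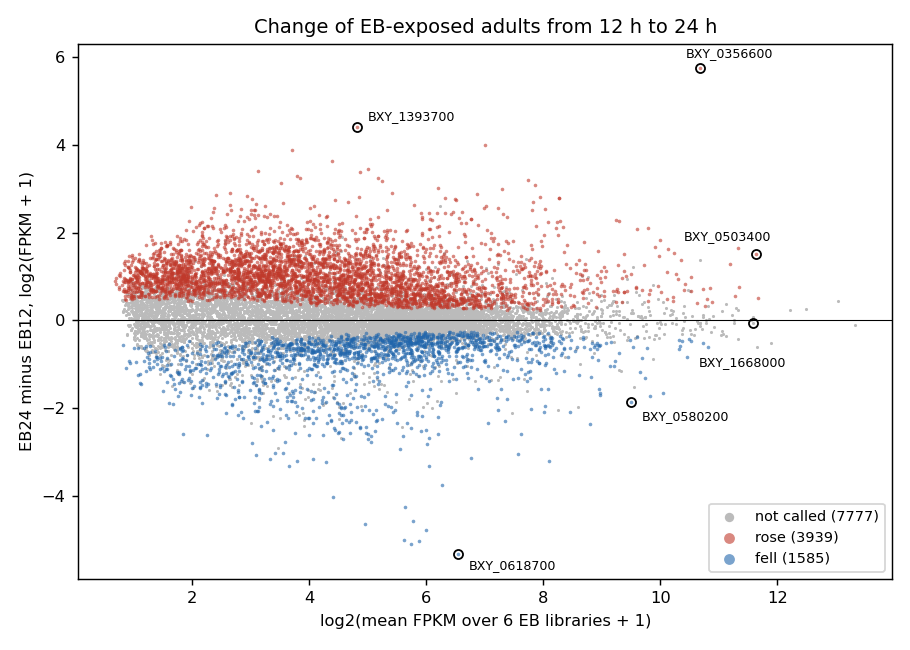
Each point is 1 of the 13301 tested genes, with the log2 of its mean FPKM + 1 over the 6 EB libraries on the x axis and the EB24 minus EB12 difference in log2(FPKM + 1) on the y axis. Genes that rose (3939) are red, genes that fell (1585) blue and genes not called (7777) grey, and 6 genes described in the text are circled.

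As deposited, transcripts under 20 FPKM rose more often than abundant ones. Among 2734 genes with a mean FPKM under 5, 34.7% rose and 6.22% fell, with a median log2 difference of 0.40. Of 3575 genes at 5 to 20, 35.2% rose and 11.6% fell (median 0.28). The shares came closer at higher levels, with 27.4% and 13.8% of 3048 genes at 20 to 50, 21.8% and 14.2% of 3158 at 50 to 200, and 26.3% and 16.7% of the 786 genes from 200 FPKM up. Rises outnumbered falls under 20 FPKM with all 3 scalings. Above 20 the order flipped after median ratio scaling, where 19.6% rose and 24.3% fell at 20 to 50, 13.9% and 27.6% at 50 to 200, and 18.8% and 28.9% from 200 up. After quantile normalization the shares at 50 to 200 also flipped, to 19.7% and 20.2%, and genes under 5 FPKM then rose least often of the 5 classes (16.9%, against 23.3% from 200 up).

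**Figure D2:**
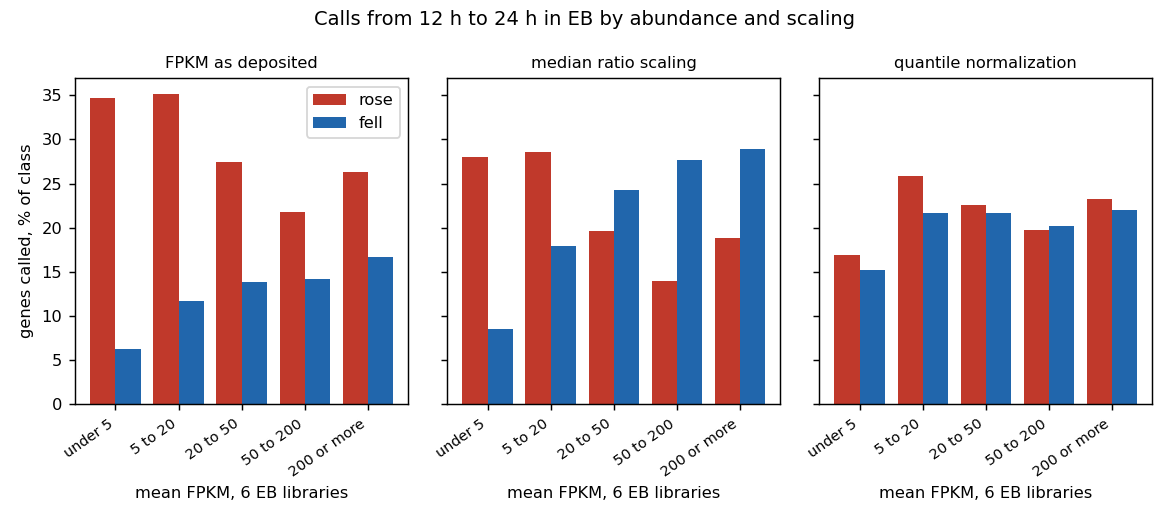
Bars give the percentage of genes in each class of mean FPKM (x axis) that rose (red) or fell (blue) from EB12 to EB24, in 3 panels for the deposited FPKM and the other scalings. As deposited, 34.7% of genes under 5 FPKM rose against 6.22% that fell, and at 50 to 200 FPKM the order depended on the scaling.

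The largest rise was that of BXY_0356600. It stood at 117, 31.5 and 54.02 FPKM in EB12 replicates 1, 2 and 3 and at 3185, 3179 and 3255 in EB24. From EB12 to EB24 it went from rank 2878 to rank 10 among all IDs by mean FPKM, and from 0.00781% to 0.347% of the summed FPKM. The log2 difference was 5.75 ± 0.42 (SE; limma adjusted p = 0.000643). Its EC libraries stood at 116 ± 71.7 FPKM (SD, n = 3) at 12 h and 1639 ± 57.9 at 24 h, and the difference between the changes in EB and EC, 1.78 ± 0.60 log2 units, did not pass the test (limma adjusted p = 0.0797). It passed with weights per time point, without EB12 replicate 1 and without EC12 replicate 1 (limma adjusted p = 0.0299, 0.0232 and 0.0466), and the other alternatives gave 0.0757 to 0.153.

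Next in size came BXY_1393700 and BXY_1230800. BXY_1393700 had 0.42, 3.15 and 1.69 FPKM in EB12 and 61.9, 50.9 and 45.5 in EB24 (log2 difference 4.41 ± 0.38, limma adjusted p = 0.000788). BXY_1230800 had 23.3, 11.6 and 10.03 FPKM in EB12 and 238, 256 and 229 in EB24 (log2 difference 4.01 ± 0.28, limma adjusted p = 0.000643). That EB24 lay above the highest EB12 value in both genes was fixed by choosing non-overlapping genes. The EC means moved as well, from 6.98 to 195 FPKM for BXY_1393700 and from 21.4 to 160.2 for BXY_1230800.

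The other 5 of the 8 largest rises started from an FPKM of at most 10.6 in every EB12 library. BXY_1464600 was listed at 0 in EB12 replicate 2 and at 3.22 and 0.04 FPKM in replicates 1 and 3, and stood at 21.8 to 23.9 in EB24. BXY_1206900 was also listed at 0 in EB12 replicate 2, with 5.31 and 3.08 FPKM in replicates 1 and 3, and stood at 44.9, 41.9 and 24.4 in EB24. In BXY_1559600 and BXY_1397300 it was EB12 replicate 2 that was highest, at 9.64 and 10.6 FPKM against 2.09 to 2.94 in the other EB12 libraries, and EB24 reached 50.4 to 63.8 and 47.9 to 56.4. No single EB12 library was therefore low in all of these genes. Log2 differences of these 4 genes were 3.37 to 3.88 (limma adjusted p of 0.00155 to 0.00575). In EC their log2 differences were 3.00 to 3.91. The differences between the changes in EB and EC did not pass the test (limma adjusted p of 0.719 to 0.977). The last of the 8, BXY_0597900, was low in all 3 EB12 libraries (0.73, 0.67 and 0.18 FPKM) and reached 13.4, 16.5 and 15.1 in EB24 (log2 difference 3.40 ± 0.20, limma adjusted p = 0.000527). All 8 kept a limma adjusted p under 0.05 without any 1 of the 6 libraries and under every other setting tried.

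**Figure D3:**
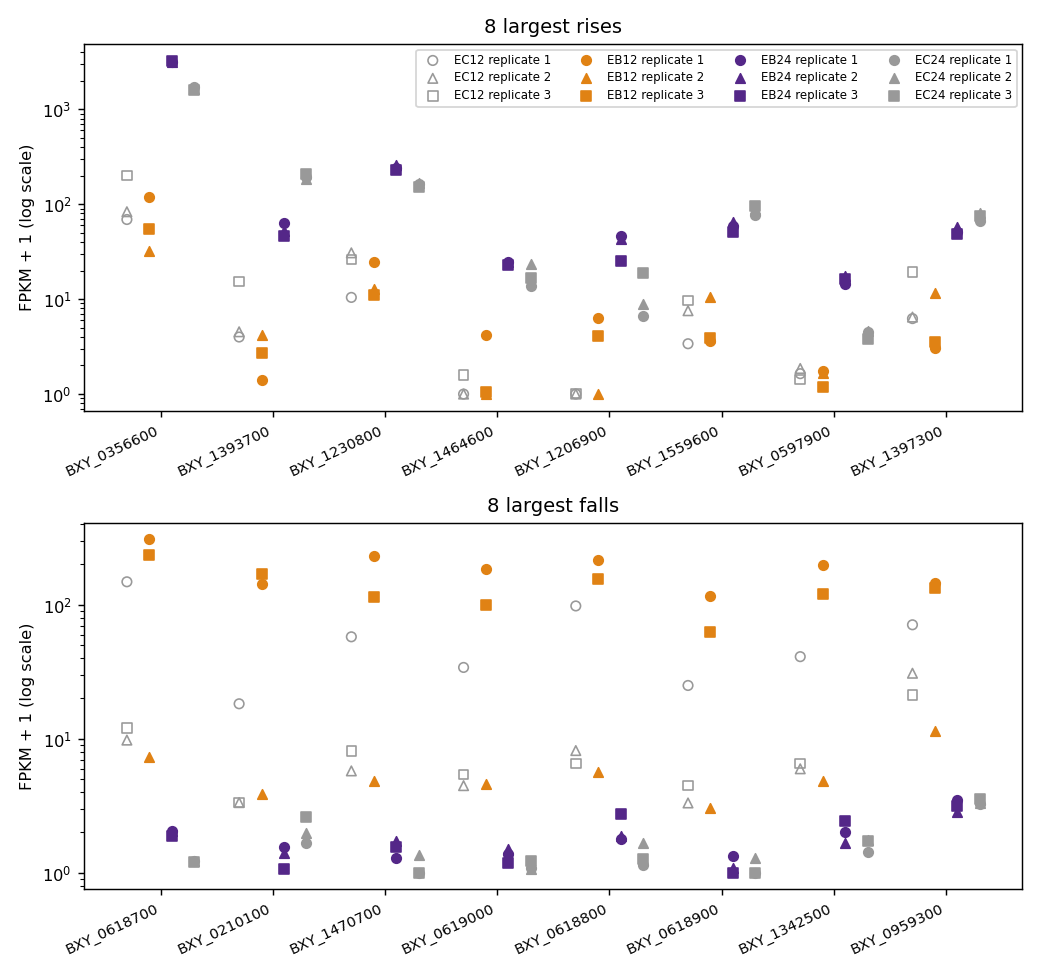
FPKM + 1 on a log scale for the 8 largest rises (top) and the 8 largest falls (bottom) among called genes with a mean of at least 10 FPKM at either time. Orange marks EB12, violet EB24, open grey EC12 and filled grey EC24, with circles, triangles and squares for replicates 1, 2 and 3. In the falls, EB12 replicate 2 lies below the other 2 EB12 libraries throughout.

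The largest falls had 1 shape in common. BXY_0618700, the largest, stood at 307, 6.29 and 236 FPKM in EB12 replicates 1, 2 and 3 and at 1.04, 1.06 and 0.89 in EB24 (log2 difference -5.34 ± 1.33, limma adjusted p = 0.0181). In all 8 of the largest falls EB12 replicate 2 was the lowest EB12 library. That it still lay above every EB24 library was fixed by choosing non-overlapping genes. For BXY_0210100 the EB12 values were 143, 2.88 and 170.02 FPKM and the EB24 values 0.55, 0.40 and 0.07 (log2 difference -5.11 ± 1.37, limma adjusted p = 0.0231). For BXY_1470700 they were 231, 3.82 and 113, and 0.29, 0.74 and 0.57 (log2 difference -5.05 ± 1.32, limma adjusted p = 0.0212). The same held for BXY_0618800, BXY_0618900, BXY_0619000 and BXY_1342500, where EB12 replicate 2 had 2.06 to 4.65 FPKM, the other EB12 libraries 61.2 to 214 and EB24 at most 1.73. BXY_0959300 was the least uneven, with 145, 10.35 and 132 FPKM in EB12 and 2.49, 1.85 and 2.16 in EB24 (log2 difference -4.26 ± 0.93, limma adjusted p = 0.0112).

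Of these 8 genes, 7 lost their call in some fits with 1 library left out, while their log2 differences stayed between -3.58 and -7.08. Without EB12 replicate 3, or without any 1 EB24 library, the adjusted p of each of the 7 rose above 0.05 (limma, at most 0.0884), in fits where the calls over all genes also dropped (to 3218 to 3472 without an EB24 library). Without EB12 replicate 1 that was also so for BXY_0210100, BXY_0618800 and BXY_1342500. Without EB12 replicate 2 the falls became larger and the adjusted p smaller, for example a log2 difference of -7.08 for BXY_0618700 (limma adjusted p = 3.43e-05). BXY_0959300 stayed called without any 1 library (limma adjusted p at most 0.0436). The controls were uneven too: EC12 replicate 1 was the highest EC12 library in all 8 genes, at 147 FPKM for BXY_0618700 against 8.78 and 11.1 in EC12 replicates 2 and 3. EC24 stood at most at 2.54 FPKM in any of the 8. Their log2 differences in EC were -1.53 to -4.42, with BXY_0210100, BXY_0618900 and BXY_1342500 not called. The differences between the changes in EB and EC did not pass the test (limma adjusted p of 0.17 to 0.754). Without EB12 replicate 2 they passed for BXY_0210100, BXY_0618900, BXY_0619000, BXY_0959300 and BXY_1342500 (limma adjusted p of 0.00409 to 0.0261). They did not pass for the other genes of the 8 (limma adjusted p of 0.0562 to 0.125).

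Among all 108 genes that fell by at least 2 log2 units, EB12 replicate 2 was the lowest EB12 library in 78 (72.2%), against 38.3% of all tested genes and 28.2% of all 1585 falls. Among the 180 genes that rose by that much it was the lowest in 89 (49.4%). EB12 replicate 1 was the highest EB12 library in 78 of the 108 falls (72.2%), against 37.4% of all tested genes and 33.6% of all 1585 falls. Without EB12 replicate 2 the falls of at least 2 log2 units numbered 209. They numbered 68 without EB12 replicate 1, and 72, 75 and 77 without EB24 replicates 1, 2 and 3.

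By the change in FPKM itself, the rises were led by BXY_0356600 and 3 genes that were already abundant. BXY_0503400 stood at 1447, 2787 and 1055 FPKM in EB12 and 4436, 4868 and 4518 in EB24 (log2 difference 1.51 ± 0.33, limma adjusted p = 0.012). BXY_1766200 stood at 1985, 675 and 1316 FPKM in EB12 and 4187, 3552 and 3717 in EB24 (log2 difference 1.66 ± 0.36, limma adjusted p = 0.0116). BXY_0186100 had the tightest EB12 values of the 3, 1494, 1483 and 1146 FPKM, against 3115, 3681 and 3135 in EB24 (log2 difference 1.27 ± 0.15, limma adjusted p = 0.0017). In EC these 3 genes had log2 differences of 1.29, 1.98 and 1.46. Their changes in EB and EC did not differ by the test (limma adjusted p = 0.811, 0.672 and 0.563).

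The largest losses of FPKM were smaller than these gains. BXY_0580100 had 1911, 1800.15 and 1140.2 FPKM in EB12 and 501, 508 and 478 in EB24 (log2 difference -1.67 ± 0.20, limma adjusted p = 0.00166). BXY_0614800 had 926, 1827 and 1454 FPKM in EB12 and 417, 383 and 421 in EB24 (log2 difference -1.73 ± 0.24, limma adjusted p = 0.0024). EB12 replicate 2 was the highest EB12 library in BXY_0614800, so the low values of that library were not general. BXY_0580200 fell from 1232, 1107 and 1071 FPKM to 323, 301 and 309 (log2 difference -1.86 ± 0.10, limma adjusted p = 0.000527). BXY_0387500 fell from 1649, 1724 and 2063 FPKM to 1093, 939 and 1005 (log2 difference -0.84 ± 0.13, limma adjusted p = 0.00349). These 7 abundant genes kept their calls without any 1 library, with adjusted p of at most 0.0487 (limma). In EC the falling genes had log2 differences of -1.59, -1.80, -1.93 and -1.40, in the order given. Their changes in EB and EC did not differ by the test (limma adjusted p = 0.913, 0.922, 0.946 and 0.163). For BXY_0387500 that difference passed after quantile normalization (limma adjusted p = 0.0473).

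With the deposited FPKM, several of the most abundant transcripts were held within a narrow interval. Of the 7777 genes not called, 2371 had a 95% interval of the log2 difference within -0.5 to 0.5, while for 5406 the interval reached further and a change of that size was not shown to be absent. The most abundant of the 2371 was BXY_1668000, with 2848, 2852 and 3754 FPKM in EB12 and 3350.5, 2726 and 2938 in EB24 (95% interval -0.46 to 0.33). BXY_1561100, BXY_0592800 and BXY_1278900 followed, with EB12 means of 2999, 2996 and 2456 FPKM, EB24 means of 3143, 3009 and 2473, and intervals of -0.29 to 0.45, -0.31 to 0.33 and -0.30 to 0.33.

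Hardly any ID went fully on or off in the table. Only 3 IDs were listed at 0 in all EB12 libraries and at 1 FPKM or more in all EB24 libraries, and 1 ID the other way round. BXY_1473500 was listed at 0 in EB12 and at 1.95, 4.21 and 2.54 FPKM in EB24. BXY_1641500 reached 1.19, 1.94 and 2.32 FPKM and BXY_1618100 reached 1.01, 1.46 and 2.35. BXY_0285000 stood at 3.75, 4.70 and 7.10 FPKM in EB12 and was listed at 0 in EB24. It was listed at 0 in all EC24 libraries too, with 3.98, 2.80 and 0.71 FPKM in EC12. All 4 passed the test, and a value of 0 in this table may stand for a low number of reads or for a failed estimate.

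As deposited, the loci with XLOC IDs rose more often than the tested genes at large. Of 185 tested, 76 rose (41.1%, against 29.6% of all tested genes), 10 fell (5.41%, against 11.9%) and 99 were not called, with a median log2 difference of 0.55 against 0.15 for all. They were also low in level, with a median mean FPKM of 3.97 against 22.1 for all tested genes, and the part of level in their share was not tested. Of all tested genes with a mean FPKM under 5, 34.7% rose and 6.22% fell. After median ratio scaling 64 of the 185 XLOC loci rose and 12 fell, against 2969 and 2714 of all 13301 tested genes. After quantile normalization 48 rose and 16 fell, against 2879 and 2661 of all. The median log2 difference of the XLOC loci was then 0.41 and 0.22, against -0.03 and -0.02 for all.

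Genes with consecutive BXY numbers shared a direction somewhat more often than all pairs did. Among 10585 pairs of consecutive tested IDs, 33.8% of the genes that followed a risen gene rose, against 28.8% of all second members. After a fallen gene 17.9% fell, against 12.2%. The table does not say whether consecutive numbers are neighbours on a chromosome, and overlapping or near-identical genes can share reads, so members of such runs are uncertain as separate genes. Runs of at least 4 IDs all called in 1 direction numbered 61 for rises, with 278 genes, and 7 for falls, with 28 genes. The numbers came level with the other scalings, at 27 rising and 28 falling runs after median ratio scaling and 26 and 25 after quantile normalization. The runs and genes described next were chosen after their values had been seen.

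The run with the deepest fall was BXY_0618700 to BXY_0619000, with 4 of the 8 largest falls. In EB12 each of its members was highest in replicate 1, then replicate 3, then replicate 2. That order was not particular to the run: BXY_1470700, BXY_1342500 and BXY_0959300, also among the largest falls, had it too. Another falling run ended with the abundant genes BXY_0580100 and BXY_0580200, described above. Its first members, BXY_0579900 and BXY_0580000, fell from 7.92, 15.4 and 5.47 FPKM to 2.96, 1.39 and 2.38, and from 11.4, 11.8 and 11.4 to 7.21, 6.96 and 6.25 (log2 differences -1.63 ± 0.37 and -0.68 ± 0.13, limma adjusted p = 0.0127 and 0.00787). All 7 falling runs were called whole with both other scalings. Those scalings called 1585 and 1584 of all 1585 falls again, so this says nothing particular to the runs.

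The longest rising run had 8 IDs, BXY_0970200 to BXY_0970900, with log2 differences of 1.04 to 2.31, and 7 of the 8 were called with either other scaling. Its most abundant member, BXY_0970500, stood at 70.1, 13.8 and 40.2 FPKM in EB12 and 146, 201 and 175 in EB24 (log2 difference 2.31 ± 0.52, limma adjusted p = 0.0127). BXY_0970600 rose from 5.46, 3.21 and 5.15 FPKM to 26.3, 30.2 and 20.8 (log2 difference 2.27 ± 0.22, limma adjusted p = 0.00101). The last member, BXY_0970900, rose from 2.48, 0.90 and 1.29 FPKM to 7.43, 6.72 and 6.33, a change that was 1.41 log2 units more positive than in EC (limma adjusted p = 0.0402). That call was lost in 8 of the 12 fits that left out 1 library, and also with a pseudocount of 0.1, no filter or median ratio scaling (limma adjusted p = 0.0549, 0.0514 and 0.0658).

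A run of 7 rising IDs, BXY_1385100 to BXY_1385700, was mixed in its EC changes. BXY_1385100, BXY_1385300 and BXY_1385700 had log2 differences of 0.52, 0.86 and 0.53 in EB and -0.08, 0.03 and 0.03 in EC, and the differences between these changes did not pass the test (limma adjusted p = 0.113, 0.14 and 0.251). The 4 other members had larger log2 differences in EC than in EB, which for BXY_1385400 (2.16 in EB and 4.20 in EC) did not pass the test (limma adjusted p = 0.0752). BXY_1385200 went from 22.5, 31.4 and 23.4 FPKM to 61.4, 61.8 and 65.97 in EB, and from 14.4, 20.1 and 56.1 to 353, 355 and 373 in EC. Its change in EB minus that in EC was -2.50 log2 units (limma adjusted p = 0.0175, and 0.00043 to 0.054 with 1 library left out). BXY_1385500 and BXY_1385600 had the same order, with EB24 values of 19.4 to 21.98 and 1.59 to 2.86 FPKM against EC24 values of 94.97 to 103 and 9.63 to 11.4. Their changes in EB minus those in EC were -2.15 and -1.68 log2 units (limma adjusted p = 0.0457 and 0.0326), and these calls were lost in 9 and 7 of the 12 fits that left out 1 library. With all libraries kept, the call for BXY_1385500 was also lost with either other pseudocount, no filter, either other scaling or no trend (limma adjusted p of 0.0534 to 0.062). That for BXY_1385600 was lost with pseudocounts of 0.1 and 0.5 (limma adjusted p = 0.177 and 0.0649). After median ratio scaling 5 of the 7 rises were called, and after quantile normalization 4.

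The ID before BXY_0356600 and the 2 IDs after it were not called over time in EB. BXY_0356500 stood at 55.1 ± 3.59 FPKM (SD, n = 3) in EB12 and 57.7 ± 6.05 in EB24 (log2 difference 0.06 ± 0.11, limma adjusted p = 0.673). BXY_0356700 stayed at 100.5, 104 and 107 FPKM in EB12 and 108, 109 and 106 in EB24 (log2 difference 0.05 ± 0.08, limma adjusted p = 0.617). BXY_0356800 stood at 204, 38.4 and 83.3 FPKM in EB12 and 67.5, 63.4 and 66.3 in EB24 (log2 difference -0.40, 95% interval -1.66 to 0.86, limma adjusted p = 0.572). In EC, BXY_0356800 fell from 428, 167 and 164 FPKM to 7.29, 7.88 and 6.80, and the change in EB was 4.38 log2 units above that in EC (limma adjusted p = 0.00881).

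**Figure D4:**
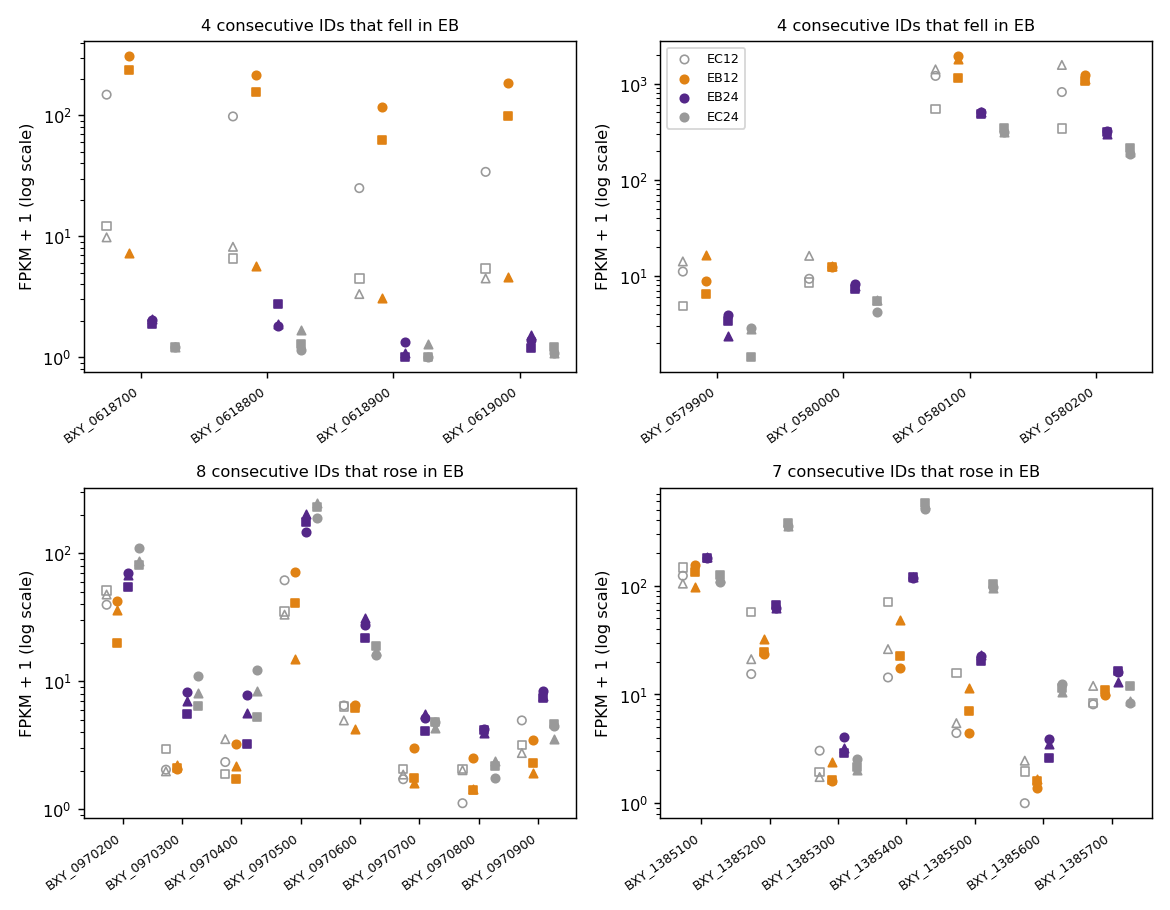
FPKM + 1 on a log scale for 4 runs of consecutive IDs, each ID on the x axis. Orange marks EB12, violet EB24, open grey EC12 and filled grey EC24, with circles, triangles and squares for replicates 1, 2 and 3. The upper runs fell in EB and the lower runs rose, and in the last run BXY_1385200 reached 353 to 373 FPKM in EC24 against 61.4 to 65.97 in EB24.

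To ask which of these changes differed from those of worms without EB, the change in EB was tested against the change in EC. The genes that rose in EB had a median log2 difference of 0.62 in EC and those that fell one of -1.02, against 0.04 for all tested genes. The 2 changes differed for 1162 genes, 8.74% of those tested, with 911 (6.85%) more positive and 251 (1.89%) more negative in EB (limma over 12 libraries, adjusted p under 0.05). Of the 3939 genes that rose in EB, 341 had a more positive change than in EC and 42 a less positive one. Of the 1585 that fell in EB, 77 were more negative than in EC and 133 more positive. A further 437 were more positive and 132 more negative in EB than in EC without being called over time in EB. The 12 h titles of EB and EC carry different group numbers, so these differences cannot be told apart from a batch.

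The balance of these differences turned after median ratio scaling but not after quantile normalization. The median difference between the changes was 0.22 log2 units over all tested genes, and after median ratio scaling 210 genes were more positive and 278 more negative, against 557 and 439 after quantile normalization. Leaving out 1 library moved the count of differences, to 2455 without EB12 replicate 2, 474 without EB12 replicate 3, 1870 without EC12 replicate 1 and 740 without EC12 replicate 3. Without a 24 h library of EB (replicates 1, 2 and 3) it was 275, 194 and 186, and without one of EC it was 400, 197 and 190.

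Among called rises with a mean of at least 10 FPKM in at least 1 group, the most positive differences were found for XLOC_009963, BXY_0194400 and BXY_1010600. XLOC_009963 stood at 8.60, 3.43 and 3.22 FPKM in EB12 and 32.7, 40.9 and 36.4 in EB24, and at 8.06 ± 5.15 (SD, n = 3) in EC12 and 8.16 ± 1.01 in EC24. BXY_0194400 rose from 1.41, 2.31 and 0.64 FPKM to 10.7, 11.9 and 8.64, with EC means of 2.77 and 2.12. BXY_1010600 rose from 0.39, 0.32 and 0.77 FPKM to 10.15, 9.69 and 10.3, with EC means of 0.65 and 1.57. For all 3 genes every EB24 library stood above every library of the other groups. The choice of genes fixed this for EB12 and, by taking large differences from EC, favoured it for EC24. The changes in EB exceeded those in EC by 2.57 ± 0.53, 2.47 ± 0.42 and 2.27 ± 0.28 log2 units (limma adjusted p = 0.0205, 0.0107 and 0.00391). BXY_0597900, among the 8 largest rises, had EC means of 0.64 and 3.29 FPKM and a difference of 2.01 ± 0.28 (limma adjusted p = 0.00516). The call for XLOC_009963 was lost without EB24 replicate 2 or 3 or EC24 replicate 2 or 3 (limma adjusted p at most 0.0644), and the calls for the other 3 genes held without any 1 library.

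Among called falls with a mean of at least 10 FPKM in at least 1 group, the most negative differences were found for BXY_1377300, BXY_0937800 and BXY_0841800. BXY_1377300 fell from 209.6, 26.3 and 202 FPKM in EB12 to 7.06, 5.88 and 7.34 in EB24, while its means were 70.4 ± 26.9 FPKM in EC12 and 80.7 ± 2.93 in EC24. BXY_0841800 fell from 557, 91.4 and 389 FPKM to 30.5, 34.05 and 30.4, against 128 ± 85.3 in EC12 and 157 ± 6.76 in EC24. In both, EB12 replicate 2 was the lowest EB12 library, as in the largest falls. BXY_0937800 fell from 31.01, 89.9 and 28.7 FPKM to 19.3, 13.7 and 15.2, while EC rose from 24.4 ± 16.6 to 115 ± 12.3. The changes in EB minus those in EC were -4.03 ± 0.85, -3.55 ± 0.79 and -3.78 ± 0.64 log2 units for BXY_1377300, BXY_0841800 and BXY_0937800 (limma adjusted p = 0.0219, 0.0256 and 0.0107). The first call was lost when any 24 h library of EB or EC was left out (limma adjusted p at most 0.0653) and the second without any 1 of these or EB12 replicate 3 (at most 0.0708), while that of BXY_0937800 held without any 1 library. The fall of BXY_0937800 over time in EB itself was lost without any 1 EB24 library (limma adjusted p at most 0.113), and its log2 difference was -0.87 without EB12 replicate 2 against -1.39 with all libraries.

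**Figure D5:**
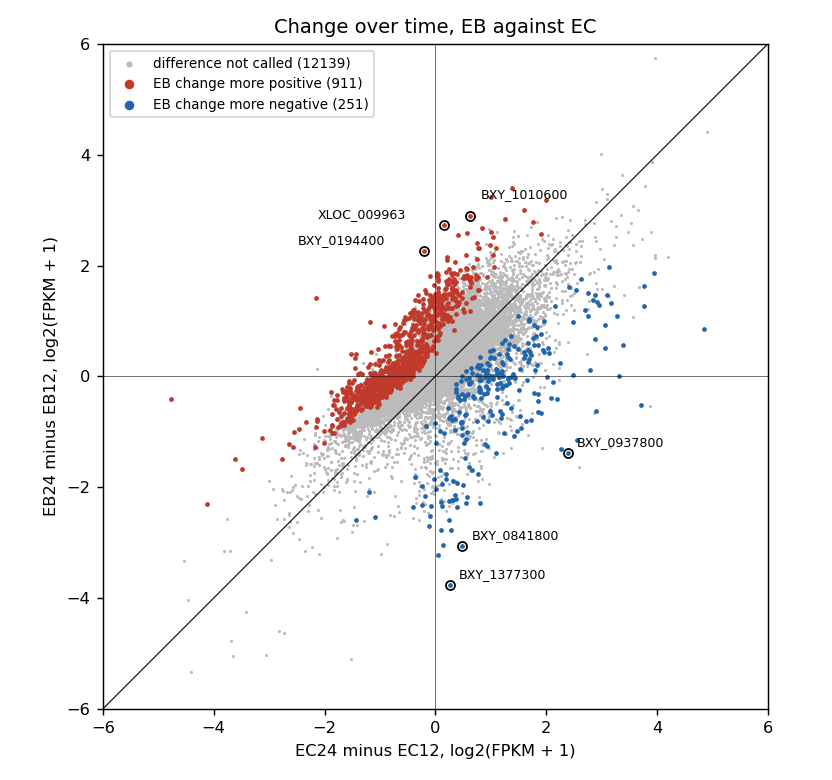
Change from 12 h to 24 h in log2(FPKM + 1) in EC (x axis) and in EB (y axis) for the 13301 tested genes, with the line of equal change. Genes whose 2 changes differed are red where the change in EB was more positive (911) and blue where it was more negative (251). Circles mark the 6 genes with the most extreme differences among called changes with a mean of at least 10 FPKM in at least 1 group.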

How the data were processed

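The authors deposited 1 table of FPKM values for 18036 IDs (17704 BXY and 332 XLOC), with 1 column per library. Per the submitters' processing notes, TopHat2 2.1.1 was among the tools. The counting tool, genome build, annotation and strand use were not given in the sources at hand. Read totals are unknown. All 12 columns matched 1 library title each, and no pair of libraries was identical. The labels do not say whether replicates were separate cultures, so the spread behind each p-value may be technical.

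The deposited FPKM were put on the log2(FPKM + 1) scale, which understates changes at low levels, and IDs were kept where 3 or more of the 6 EB libraries reached 1 FPKM. A mean per time was fitted to the 6 EB libraries, and for the comparison with EC a model with 1 mean per group to all 12, with limma 3.58.1 in R 4.3.3 (eBayes with trend). Tests were two-sided, adjusted by Benjamini-Hochberg over all tested genes at 0.05. The fit was also run on simulated data, with independent noise per gene and no shift of whole libraries. That run does not bear on the scaling or on uneven libraries. FPKM are no counts, so count models were left out.

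The comparison, the lists and the rules were chosen with earlier results of these data known. Named genes are the called, non-overlapping genes with the 8 largest rises and falls in log2 (mean of at least 10 FPKM at either time), the 4 largest in FPKM, the IDs at 0 at 1 time, the 3 largest differences from EC of each sign, and the 4 most abundant genes held within 0.5 log2 units. The differences from EC were ranked among genes with a mean of at least 10 FPKM in at least 1 group. Gene lists by function could not be filled from IDs. Alternatives were other pseudocounts, filters and scalings, a fit of all 12 libraries, a replicate block, no trend, weights per time point and leaving out each library.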

Additional observations from a re-analysis of the deposited data

Results flagged for a closer look

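The change from 12 h to 24 h differed between EB and EC for 1162 genes (limma, Benjamini-Hochberg adjusted p under 0.05), a difference between groups tested as an interaction. Among the genes described above, the change in EB minus that in EC was 4.38 log2 units for BXY_0356800, 2.57 for XLOC_009963, 2.47 for BXY_0194400, 2.27 for BXY_1010600, 2.01 for BXY_0597900 and 1.41 for BXY_0970900. It was -4.03 for BXY_1377300, -3.78 for BXY_0937800, -3.55 for BXY_0841800, -2.50 for BXY_1385200, -2.15 for BXY_1385500 and -1.68 for BXY_1385600. All genes listed here are among the 1162, so their values add nothing independent to the count. XLOC_009963, BXY_0194400, BXY_1010600, BXY_1377300, BXY_0937800 and BXY_0841800 were also chosen for the size of this difference.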

How the results depend on the processing

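The number of genes called from EB12 to EB24 (5524) stayed within 1.5 times under each pseudocount, filter, scaling, fit, trend and weight tried, and ranged from 3218 to 6767 with 1 library left out. The share of rises was 71.3% as deposited, 52.2% by median ratio scaling and 51.97% by quantile normalization. The median log2 difference turned from 0.15 to -0.0284 and -0.0191. The median was 0.12 with no filter and 0.0948 with a mean FPKM of at least 5, where more or fewer low genes were tested. The 1162 differences from EC became 488 after median ratio scaling and 186 to 2455 with 1 library left out. The cause of these shifts was not tested. With the replicate number as a block, 4838 genes were called over time and 125 differed from EC. Same-numbered EB libraries deviated together only weakly (r of 0.053, 0.053 and 0.065, each EB12 library being closest to its own number), so the numbers are not taken as pairs. Under the block the differences from EC of XLOC_009963 and BXY_0841800 (limma adjusted p = 0.0524 and 0.0564), BXY_0970900 (0.066), BXY_1385500 (0.0689) and BXY_1385600 (0.0783) were also no longer called. The named rises and falls kept call and sign over time in the 10 settings that kept all libraries, except that the 4 IDs listed at 0 at 1 time were not followed there. Of the 4 steady genes, which were not called in any of these settings, BXY_0592800, BXY_1278900 and BXY_1561100 changed sign (to -0.27, -0.18 and -0.11 at the lowest). BXY_1668000 moved from -0.06 to -0.28 at the lowest. The limit of 0.5 log2 units on the intervals was applied with the deposited FPKM only. Depth is unknown, so no counting limit can be put on low FPKM.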
